A study of Homo sapiens with 10 samples.

Results

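Antisense long noncoding RNAs were examined in K562 cells and in the microvesicles that these cells release. K562 is an established human line of chronic myeloid leukaemia, which carries the BCR-ABL1 fusion and expresses erythroid genes, and microvesicles are membrane-bound particles shed into the medium with RNA of the parent cell. The members were all probe sets whose single gene symbol ends in -AS followed by digits, and each gene was read from its probe set with the highest mean over the 10 arrays. The symbols alone, which use no difference between the groups, gave 781 antisense RNAs among 19775 genes. The choice of probe set averages both groups, so it can favour a probe set that is high in 1 of them. Total RNA was measured on 5 arrays of cells and 5 arrays of microvesicles. The labels name no drug, transgene or genetic change in either group, and both groups come from the same line, so they describe 1 line and not leukaemia cells in general. The labels do not say whether a cell sample and a microvesicle sample with the same number share a culture. Nor do they say whether the 5 numbered samples of a group come from separate cultures. P-values therefore measure only the spread between these samples.

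An antisense long noncoding RNA is transcribed from the strand opposite a gene, often from a start site next to that gene's promoter, and is named after that sense gene. Some act on the neighbouring gene by recruiting chromatin regulators, some pair with the sense mRNA, and others bind microRNAs or proteins elsewhere in the cell. Many are retained in the nucleus and present in few copies, and some are cytoplasmic.

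Because members named for the same locus can start within a few bases of the sense gene, 3 start regions are shown for the outcomes met below. They are RefSeq windows (build GRCh38.p14) of 300 bases, from 250 before to 50 after the annotated start, read 5′ to 3′ on the strand of the antisense RNA, with the bases that also lie in the window of the sense gene in capitals. In RUSC1-AS1, at chr1:155323796-155324095 on the minus strand, 191 bases are shared, and the antisense RNA fell far more than RUSC1. In SLC38A2-AS1, at chr12:46372533-46372832 on the plus strand, 109 bases are shared, and the pair moved in opposite directions. In ZBED5-AS1, at chr11:10857967-10858266 on the plus strand, 263 bases are shared, and both fell. ZBED5-AS1 was chosen for display after its values were seen.
RUSC1-AS1: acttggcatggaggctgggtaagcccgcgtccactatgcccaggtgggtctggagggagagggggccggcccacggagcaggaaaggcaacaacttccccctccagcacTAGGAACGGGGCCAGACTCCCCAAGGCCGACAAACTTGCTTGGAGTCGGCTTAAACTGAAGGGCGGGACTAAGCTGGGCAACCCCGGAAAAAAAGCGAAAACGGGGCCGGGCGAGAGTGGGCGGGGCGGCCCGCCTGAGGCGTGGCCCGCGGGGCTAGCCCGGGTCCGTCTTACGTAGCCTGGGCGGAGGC
SLC38A2-AS1: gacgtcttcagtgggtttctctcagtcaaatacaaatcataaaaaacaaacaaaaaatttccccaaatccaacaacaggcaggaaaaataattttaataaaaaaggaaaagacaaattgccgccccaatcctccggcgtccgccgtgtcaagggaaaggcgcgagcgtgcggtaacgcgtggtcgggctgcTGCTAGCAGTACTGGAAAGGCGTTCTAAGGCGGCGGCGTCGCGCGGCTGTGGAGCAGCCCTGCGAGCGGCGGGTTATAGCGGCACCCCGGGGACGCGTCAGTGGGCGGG
ZBED5-AS1: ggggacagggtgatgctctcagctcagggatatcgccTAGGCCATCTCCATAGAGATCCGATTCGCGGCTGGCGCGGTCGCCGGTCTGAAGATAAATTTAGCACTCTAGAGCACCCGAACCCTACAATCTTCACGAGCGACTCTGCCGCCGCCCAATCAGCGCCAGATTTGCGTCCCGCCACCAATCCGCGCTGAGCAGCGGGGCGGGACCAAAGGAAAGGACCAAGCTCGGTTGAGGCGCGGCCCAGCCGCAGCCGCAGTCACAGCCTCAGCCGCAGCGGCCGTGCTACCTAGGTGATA
A CCAAT box, searched as CCAAT or ATTGG so that both strands count, occurs 0 times in the RUSC1-AS1 window, 1 time in that of SLC38A2-AS1 and 2 times in that of ZBED5-AS1. Such a match is present in 34.6% of all 35097 RefSeq windows and in 32.3% of the 681 windows of the 586 antisense RNAs that have one. It is present in 31.2% of the 314 windows of antisense RNAs higher in microvesicles and in 38.1% of the 84 windows of those lower. The matches are descriptions of letters and not of binding sites.

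Values are log2 expression values made by the authors with RMA, which gives no detection call, so no value is known to exceed background. The number of arrays limits the precision. The K562 markers measured (GATA1, TAL1, LMO2, HBE1, ALAS2, KLF1 and NFE2) had group means of 6.66 to 11.72 in cells and 6.19 to 12.09 in microvesicles, above the array medians in both. The lymphocyte markers CD3E, CD2 and MS4A1 lay at 3.05 to 3.55 in cells and 3.78 to 4.45 in microvesicles, below the medians. Of the myeloid markers, CD14 stood at 2.93 and 3.48, FCGR3B at 3.48 and 5.01 and ITGAM at 5.59 and 4.98. The epithelial genes KRT19 (7.76 and 7.25) and EPCAM (9.42 and 6.55) were above the medians in both groups, and CDH1 (2.90 and 3.46) was below them. Of the fibroblast markers, COL1A1 stood at 6.48 and 6.98, COL3A1 at 3.57 and 4.15 and DCN at 4.23 and 5.50. Over genes, the SD of an array was 2.53 to 2.57 in cells and 2.06 to 2.18 in microvesicles, and the ACTB control probe set at the 3' end exceeded that at the 5' end by 2.26 to 2.57 and by 2.72 to 3.64. For GAPDH the same difference was 0.37 to 0.54 in cells and 0.50 to 0.83 in microvesicles, with overlap. The narrower range and the larger ACTB difference ran with the group on every array, and their part in the results below was not tested.

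More antisense RNAs had higher than lower values in microvesicles, and most of them were dim. Of the 781, 397 (50.8%) rose and 82 (10.5%) fell past the threshold of a limma adjusted p under 0.05, and 302 did not pass. Among all genes 35.5% rose and 31.2% fell, and 66.6% passed in either direction, against 61.3% of the antisense RNAs. The median change of the antisense RNAs, microvesicles minus cells, was 0.55 on the log2 scale (quartiles 0.16 and 0.85), against 0.20 over all genes (quartiles -0.76 and 0.70). This split was 332 against 94 when each array was centred on its median, 113 against 98 when the table was quantile normalized again, and 98 against 118 after loess normalization by level. Each microvesicle array was above each cell array in the median over the members, 3.82 to 3.97 against 3.29 to 3.41, while the medians over all genes were 5.02 to 5.13 and 4.96 to 5.00. In bulk samples such as these, fewer particles or cells that hold an RNA and less of it in each cannot be told apart.

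Changes of at least 2-fold past the threshold were seen in 122 antisense RNAs upwards, against 11.2% of all genes, and in 56 downwards, against 19.8%. In 273 members every microvesicle array was above every cell array (23.8% of all genes), and in 56 every one was below (26.1%). Without overlap in either direction were 42.1% of members and 49.9% of all genes. The excess of rises over all genes, and the lack of falls, held for both counts on the deposited scale.

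**Figure D1:**
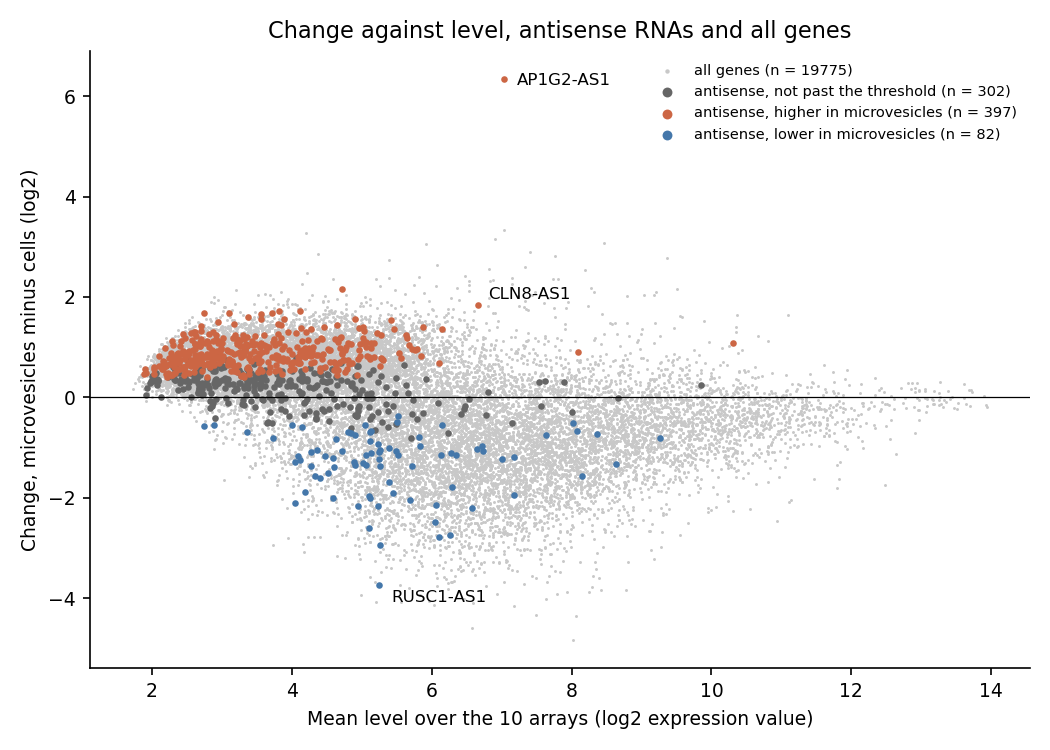
Change of each gene, microvesicles minus cells (log2), against its mean level over the 10 arrays (log2 expression value). Grey points are all 19775 genes and coloured points the 781 antisense RNAs, of which 397 rose, 82 fell and 302 did not pass. Most members lie at the dim end, where all genes tend to lie above 0, and AP1G2-AS1 stands alone at 6.35.

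Read against genes of like level, the antisense RNAs with a mean under 5 were called higher about as often as other genes. Their median level was 3.63, against 5.07 over all genes, where a level is the signal of the probe set and does not compare the amounts of different transcripts. In the dimmest class, with a mean under 3, 154 of 241 members rose (63.9%) and 2 fell, and 64.9% of all genes of that class rose. Between 4 and 5, 47.5% rose and 13.1% fell, against 49.5% and 13.5% of all genes. Between 6 and 7, 3 of 24 rose and 13 fell (54.2%), against 11.9% and 60.7%. The direction of the calls thus changed with level in the members and in all genes alike.

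Split at a mean of 5, the 641 dimmer antisense RNAs had 360 rises and 29 falls with a median change of 0.59, and all genes of that level had 56.7% higher and 6.14% lower with a median of 0.60. The 140 brighter ones had 37 rises (26.4%) and 53 falls (37.9%) with a median of -0.25, against 15.2% higher, 55.1% lower and a median of -0.60 for all genes of that level. A level here is the mean over both groups, so a gene high in 1 group alone can enter the brighter class through that group. Within the brighter class the members' levels were lower than those of all genes, with medians of 5.51 and 6.82. After loess normalization by level, which takes out this dependence, the median change was 0.027 for the antisense RNAs and 0.018 for all genes, a shift of the latter from 0.20. On that scale 98 members were higher (19.2% of all genes) and 118 lower (22.0% of all genes), and 41.3% of all genes passed in either direction. Of the 397 rises, 86 passed in the same direction after loess and 43 had a negative change, and of the 82 falls 64 passed and 4 had a positive change.

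**Figure D2:**
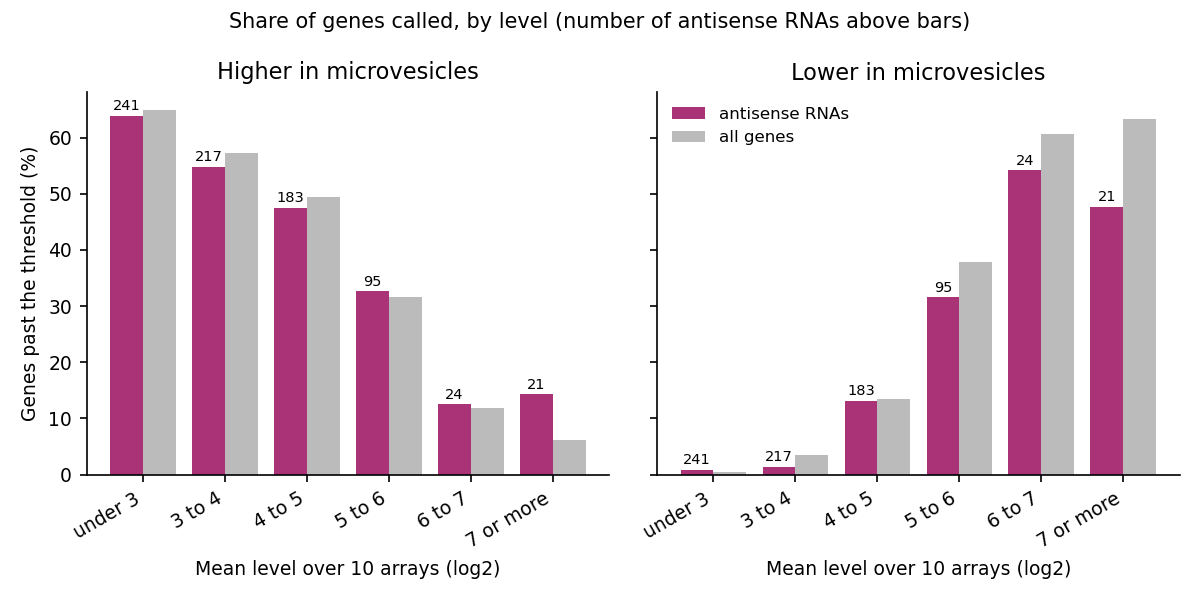
Share of genes past the threshold (%) in 6 classes of mean level (log2 expression value), higher in microvesicles and lower in microvesicles in separate panels. Bars stand for the antisense RNAs and all genes, with the number of antisense RNAs above the bars. Rises run from 63.9% of members in the dimmest class to 14.3% in the brightest, beside 64.9% and 6.13% of all genes. The brightest class of members includes AP1G2-AS1, placed there by its microvesicle values alone.

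The antisense RNAs also varied more between microvesicle arrays than between cell arrays. Over the members, any pair of cell arrays correlated at a Pearson r of 0.980 to 0.993 and any pair of microvesicle arrays at 0.794 to 0.873. A cell array and a microvesicle array correlated at 0.742 to 0.846. Over all genes the corresponding ranges were 0.992 to 0.998, 0.925 to 0.955 and 0.870 to 0.925. These are across genes, which are not independent replicates.

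AP1G2-AS1 had the largest rise in microvesicles of any of the 19775 genes. It is named after AP1G2, which encodes a gamma subunit of the AP-1 clathrin adaptor. In cells it stood at 3.79, 4.11, 4.06, 3.41 and 3.94, and in microvesicles at 9.66, 10.57, 10.51, 10.62 and 9.68. The groups lay far apart, with all 5 microvesicle arrays among the bright values and all 5 cell arrays among the dim ones. The means were 3.86 ± 0.28 and 10.21 ± 0.49 (SD, n = 5 each), a change of 6.35 ± 0.23 (SE, 81.3-fold, limma adjusted p = 7.37e-09). Since the cell value may be background, the fold is uncertain. After loess the change was 7.19, and the next largest rise of any gene was that of GALR3 at 3.34.

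Only the brighter of its 2 probe sets showed a change of this size. The other probe set of AP1G2-AS1 went from 3.76 to 4.76, a change of 0.997 ± 0.19 (limma adjusted p = 0.000523 over all probe sets), and the mean of both changed by 3.67. The sense gene AP1G2 stood at 5.62, 5.68, 5.74, 5.66 and 5.92 in cells and at 5.64, 6.44, 5.83, 4.12 and 5.47 in microvesicles. Its groups overlapped, and its change of -0.22 ± 0.32 did not pass (limma adjusted p = 0.547). The antisense change exceeded that of AP1G2 by 6.57 (exact permutation p = 0.00794, the smallest that 5 against 5 arrays allow, adjusted p = 0.0211 over all pairs).

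**Figure D3:**
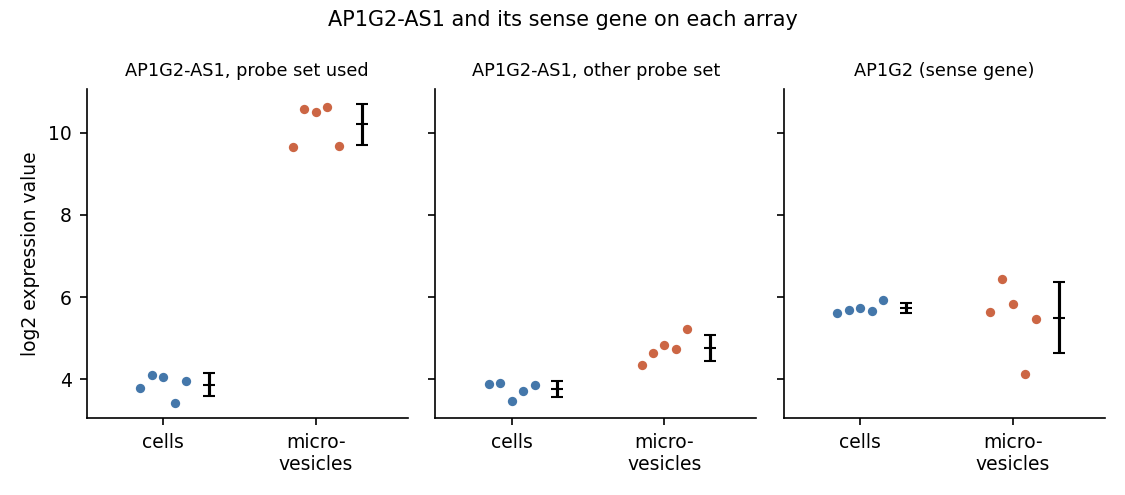
Log2 expression values of the 2 probe sets of AP1G2-AS1 and of its sense gene AP1G2 on each array, as points, in 5 arrays of cells and 5 of microvesicles, with black bars at the group mean ± SD. The used probe set goes from 3.86 to 10.21, the other from 3.76 to 4.76, and AP1G2 overlaps between the groups.

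Among members past the threshold whose higher group mean was at least 5, the other 9 of the 10 largest rises lay between 1.38 and 2.16. NFIA-AS2, named after a transcription factor of the nuclear factor I family, stood at 3.64, 3.56, 3.59, 3.69 and 3.69 in cells. In microvesicles it stood at 5.38, 6.14, 6.07, 6.02 and 5.35. The groups did not overlap, and the change was 2.16 ± 0.19 (limma adjusted p = 1.46e-06, 1.79 after loess). Smaller changes of 0.82 and 0.52 were read by its other 2 probe sets, and the mean over probe sets was 1.17. The sense gene NFIA fell by 1.07, and the difference of 3.23 passed (exact permutation adjusted p = 0.0211).

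CLN8-AS1, named after an endoplasmic reticulum protein gene of neuronal ceroid lipofuscinosis, was at 5.56, 5.88, 5.90, 5.67 and 5.70 in cells. In microvesicles it was at 7.17, 7.49, 7.81, 7.98 and 7.46, again without overlap. The change was 1.84 ± 0.18 (limma adjusted p = 3.01e-06), and 2.61 after loess, while CLN8 changed by -0.15 ± 0.20 and did not pass. The other probe set of CLN8-AS1 changed by 0.49 (limma adjusted p = 0.0552 over all probe sets).

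TFAP2A-AS1 (1.55 ± 0.19), opposite the gene of transcription factor AP-2 alpha, rose in both of its probe sets. STPG3-AS1 (1.39 ± 0.17) did so too, with 1.47 in the second. EML2-AS1 (1.54 ± 0.20), opposite a gene of a microtubule-associated protein, rose in 1 of 2, and the other changed by -0.30. TNS2-AS1 (1.43 ± 0.21) and OVCH1-AS1 (1.40 ± 0.31) have 1 probe set each. BCDIN3D-AS1 (1.40 ± 0.31), opposite an RNA methyltransferase gene, and SPAG5-AS1 (1.38 ± 0.28), opposite a mitotic spindle gene, complete the 10. Their other probe sets did not pass, at 0.23 and 0.54, and averaging both probe sets gave 0.81 and 0.96. In both the sense gene went the other way, BCDIN3D by -1.16 and SPAG5 by -1.07. All 10 rises kept a positive change past the threshold after loess, the smallest being that of OVCH1-AS1 at 0.95 (limma adjusted p = 0.029). They were taken for the size of their change on these same arrays, so this is no independent support.

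The largest fall among the antisense RNAs was that of RUSC1-AS1, whose start region is printed above. RUSC1 encodes a signalling adaptor. RUSC1-AS1 stood at 7.04, 7.13, 7.10, 6.46 and 7.82 in cells and at 2.95, 3.36, 3.31, 3.50 and 3.74 in microvesicles. The lowest cell array was well above the highest microvesicle array. The change was -3.74 ± 0.23 (13.4-fold, limma adjusted p = 1.49e-07, -3.83 after loess), the 27th largest fall of all genes. RUSC1 stood at 7.22, 7.22, 7.28, 7.66 and 7.51 in cells and at 6.09, 6.41, 6.99, 6.62 and 6.97 in microvesicles. Its groups did not overlap either, but its fall of 0.76 turned to 0.081 after loess. The difference between antisense and sense change was -2.98 (exact permutation adjusted p = 0.0211). The other probe set of RUSC1-AS1 changed by -0.072 (limma adjusted p = 0.713 over all probe sets), so the fall rests on 1 of 2.

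PSMA3-AS1, opposite the gene of a proteasome alpha subunit, stood at 6.79, 6.95, 6.93, 6.39 and 6.62 in cells. In microvesicles it stood at 3.43, 3.05, 4.04, 4.54 and 3.86. The groups were apart, with a change of -2.95 ± 0.25 (7.73-fold, limma adjusted p = 1.16e-06). All 3 of its probe sets fell, the others by 1.54 and 2.18, and PSMA3 itself changed by -0.66, a difference of -2.29 (exact permutation adjusted p = 0.0211). GABPB1-AS1, opposite the gene of the GA-binding protein beta subunit, was at 7.34, 7.56, 7.64, 7.08 and 7.84 in cells and at 3.79, 5.09, 5.24, 4.69 and 4.74 in microvesicles. It changed by -2.78 ± 0.25 (6.87-fold, limma adjusted p = 2.07e-06), and 5 of its 6 probe sets fell. In both, several probe sets of the locus carried the fall.

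ZNF143-AS1, opposite a zinc finger transcription factor gene with which it shares 187 bases of start window, stood at 6.51, 6.42, 6.26, 6.50 and 6.37 in cells and at 2.94, 3.87, 4.12, 4.32 and 3.81 in microvesicles. The groups were apart, and the change was -2.60 ± 0.23 (limma adjusted p = 1.45e-06). ZNF143 fell as well, by 1.66, and the difference of -0.94 did not pass (exact permutation adjusted p = 0.0956), whereas after loess it was -1.89 and passed (0.0275). CKMT2-AS1 changed by -2.48 ± 0.23 in the probe set used and by -1.21 in the other, and CKMT2, a mitochondrial creatine kinase gene, did not pass at 0.20. TMEM147-AS1 (-2.20 ± 0.24), THUMPD3-AS1 (-2.16 ± 0.19, in 3 of 4 probe sets) and NNT-AS1 (-2.15 ± 0.28, 1 probe set) fell with their sense genes. NNT, a mitochondrial transhydrogenase gene, fell by 2.82, and its difference from NNT-AS1 did not pass (exact permutation adjusted p = 0.274).

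CCDC18-AS1 (-2.75 ± 0.34) and PNISR-AS1 (-2.16 ± 0.23) belong to the 10 largest falls, but the other probe set of each had a positive change. That of CCDC18-AS1 rose by 1.09 (limma adjusted p = 0.000419 over all probe sets), and the mean of its probe sets changed by -0.83. That of PNISR-AS1 rose by 0.52 (limma adjusted p = 0.0237 over all probe sets), and the mean of its probe sets changed by -0.82. All 10 falls kept a negative change past the threshold after loess, the smallest being that of TMEM147-AS1 at -1.45 (limma adjusted p = 0.00023). These falls too were taken for their size on the same arrays, so this is no independent support.

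**Figure D4:**
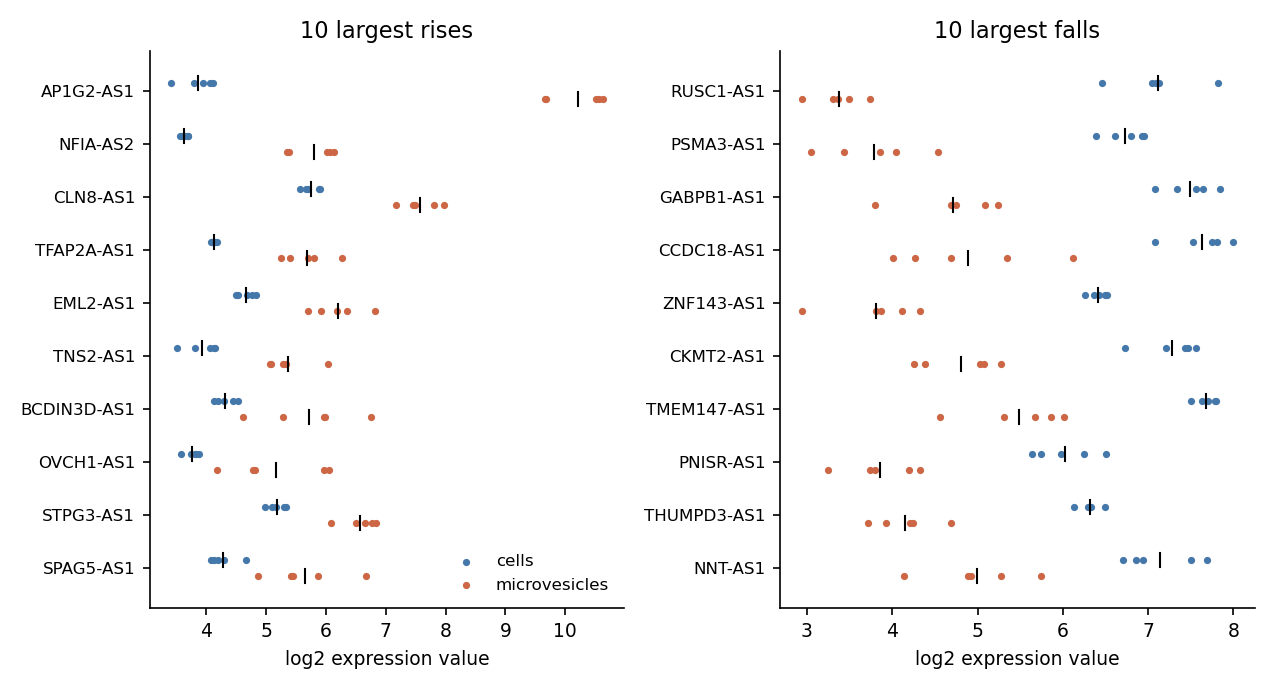
Log2 expression values on each array of the 10 antisense RNAs with the largest rises and the 10 with the largest falls among members past the threshold whose higher group mean is at least 5. Points are single arrays, 5 of cells and 5 of microvesicles per gene, and black ticks are group means. AP1G2-AS1 is the widest separation upwards (3.86 to 10.21) and RUSC1-AS1 downwards (7.11 to 3.37).

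Antisense RNAs with a studied function were taken whatever their values. OIP5-AS1, a conserved cytoplasmic RNA also known as Cyrano that promotes the decay of a microRNA, was at 9.33, 9.32, 9.31, 9.36 and 9.18 in cells and at 7.90, 7.66, 8.09, 8.33 and 7.87 in microvesicles. The groups did not overlap. It fell by 1.33 ± 0.16 (limma adjusted p = 1.57e-05) in the probe set used, and its other 2 fell by 0.63 and 0.99. After loess the fall was smaller, at -0.61 (limma adjusted p = 0.0108), and OIP5 fell alongside by 1.30.

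ZEB1-AS1, which shares its start region with the gene of the transcription factor ZEB1, was at 6.44, 6.66, 6.37, 5.31 and 5.82 in cells and at 3.57, 3.87, 4.19, 3.63 and 5.34 in microvesicles. The highest microvesicle array reached above the lowest cell array, so the groups overlapped. The change was -1.999 ± 0.34 (limma adjusted p = 0.000254, -2.17 after loess), and that of ZEB1 was -0.95. TMPO-AS1, named after the gene of a nuclear lamina protein family, fell by 1.25 ± 0.29 (limma adjusted p = 0.00241), from 4.74 ± 0.33 to 3.49 ± 0.69 (SD, n = 5 each), with TMPO at -1.12. The cell values ran from 4.25 to 5.09 and the microvesicle values from 2.75 to 4.38, so these groups overlapped too.

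CDKN2B-AS1, also known as ANRIL, which recruits Polycomb complexes to the INK4 locus, was at 2.09, 1.81, 2.05, 2.03 and 1.90 in cells and at 3.25, 3.45, 2.37, 2.23 and 2.89 in microvesicles. All values were below the array medians, and the groups did not overlap. Its rise of 0.86 ± 0.23 (limma adjusted p = 0.00523) was 0.27 after loess and did not pass (0.345). HOXA-AS2, from the homeobox A cluster, also lost its call after loess, with a rise of 0.85 ± 0.23 (limma adjusted p = 0.00622) in 3 of 3 probe sets and 0.38 after loess (0.216).

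GATA3-AS1, next to the gene of the lymphoid factor GATA3, did not pass (0.18 ± 0.17, limma adjusted p = 0.361), and its value turned to -0.42 after loess and -0.36 after a second quantile normalization. Its other probe set rose by 0.79 (limma adjusted p = 0.00422 over all probe sets), and the mean of both passed at 0.48 (limma adjusted p = 0.00369). MCM3AP-AS1 fell by 1.16 ± 0.30 (limma adjusted p = 0.00409), with overlapping groups. It did not pass after loess (-0.51, 0.200), and 1 of its 3 probe sets rose by 0.64. MAPKAPK5-AS1 fell by 0.66 ± 0.19 (limma adjusted p = 0.00722), from 8.41 ± 0.06 to 7.75 ± 0.38 (SD, n = 5 each), and its sign turned after loess (0.15), after quantile normalization (0.18) and with the mean of its 4 probe sets (0.0085). No probe set of its own was found for HIF1A-AS1 or FLVCR1-AS1.

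Of the 21 antisense RNAs with a mean of at least 7, 3 rose (14.3%, against 6.13% of all genes of that level) and 10 fell (47.6%, against 63.3%). Their median change of -0.51 turned to 0.34 after loess. AP1G2-AS1, with group means of 3.86 in cells and 10.21 in microvesicles, is among the 3 only through its microvesicle values. Its own rise placed it in this class, so the 14.3% partly follows from how the class was set. The other rises were those of EPB41L4A-AS1 and OTUD6B-AS1, named here after their values were seen. EPB41L4A-AS1 stood at 10.07, 9.82, 10.07, 9.08 and 9.78 in cells and at 10.47, 10.87, 10.94, 11.28 and 10.70 in microvesicles. All microvesicle arrays were above all cell arrays, with a change of 1.09 ± 0.22 (limma adjusted p = 0.00081), but its other probe set fell by 1.91 (from 6.61 to 4.69). In OTUD6B-AS1 the probe set used rose by 0.90 ± 0.22 (limma adjusted p = 0.00316), from 7.64 ± 0.31 to 8.54 ± 0.41 (SD, n = 5 each), with overlapping groups. Its other probe set fell by 1.45. Both RNAs are thus read in opposite directions by their 2 probe sets.

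Calls in opposite directions such as these were seen in a minority of loci. Of 215 antisense RNAs with several probe sets, 21 were called in both directions by different probe sets and 165 in 1 direction. The 165 include loci where other probe sets did not pass, such as RUSC1-AS1 and EML2-AS1. No share over all genes is given beside the counts of this paragraph. They therefore do not show whether antisense RNAs differ from other genes in this respect. In 60 every probe set passed the same way, 53 upwards and 7 downwards, and in 29 none passed. The 302 probe sets not used as the gene's value had 152 rises and 31 falls with a median change of 0.53. The 215 probe sets used for the same antisense RNAs had 93 rises and 43 falls with a median of 0.39. Whether each probe set reads the antisense strand alone was not tested, since probe sequences were not used here.

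Other noncoding RNAs of these arrays were taken by symbol, to be read against the 35.5% of all genes that rose and the 31.2% that fell. Of 832 LINC genes, intergenic noncoding RNAs, 489 rose (58.8%) and 36 fell (4.33%; median 0.61, and 0.097 after loess). Of 197 divergent transcripts (-DT) 87 rose (44.2%) and 27 fell (13.7%; median 0.42, and -0.067 after loess). Of 26 intronic transcripts (-IT) 8 rose (30.8%, a share below that of all genes) and 6 fell (23.1%; median 0.39, and -0.22 after loess). Of 18 overlapping or opposite-strand transcripts (-OT, OS) 11 rose (61.1%) and 3 fell (16.7%; median 0.67, and 0.18 after loess), and of 11 symbols ending in -AS without a digit 8 rose (72.7%) and 2 fell (18.2%; median 0.86, and 0.25 after loess). Among the antisense RNAs themselves, 27 are named after numbered zinc finger genes, of which 15 rose and 5 fell (median 0.63, and 0.27 after loess).

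Sense genes were measured for 715 of the antisense RNAs, 691 genes in all, and 66 had none. The sense genes had 237 rises (34.3%) and 235 falls (34.0%), against 35.5% and 31.2% of all genes. Their median change was 0.19, and 0.0084 after loess. Both partners rose in 149 pairs and both fell in 41. The antisense RNA rose and the sense gene fell in 97 pairs, and the reverse was seen in 11. Of the paired antisense RNAs 371 rose and 72 fell. Whether 97 and 11 differ from the counts that such totals alone would give was not tested. In 125 pairs the antisense RNA alone rose, in 20 it alone fell, in 86 the sense gene alone rose, in 102 it alone fell, and in 84 neither passed. Antisense and sense changes had a Pearson r of 0.21 and a Spearman rho of 0.19 over the 715 pairs (0.12 for r after loess), as a description over pairs that share all arrays.

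The difference between antisense and sense change passed in 290 of 715 pairs (40.6%, exact permutation test of the per-array difference, adjusted p under 0.05 over the pairs). In 232 of them the antisense change was above that of the sense gene and in 58 below. After loess 243 passed, 128 above and 115 below. The balance towards antisense on the deposited scale went with a difference in level, with a median of 3.60 for the antisense probe sets and 5.27 for the sense probe sets. Of the 108 pairs called in opposite directions, 87 kept opposite signs after loess and 17 were still called in opposite directions.

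**Figure D5:**
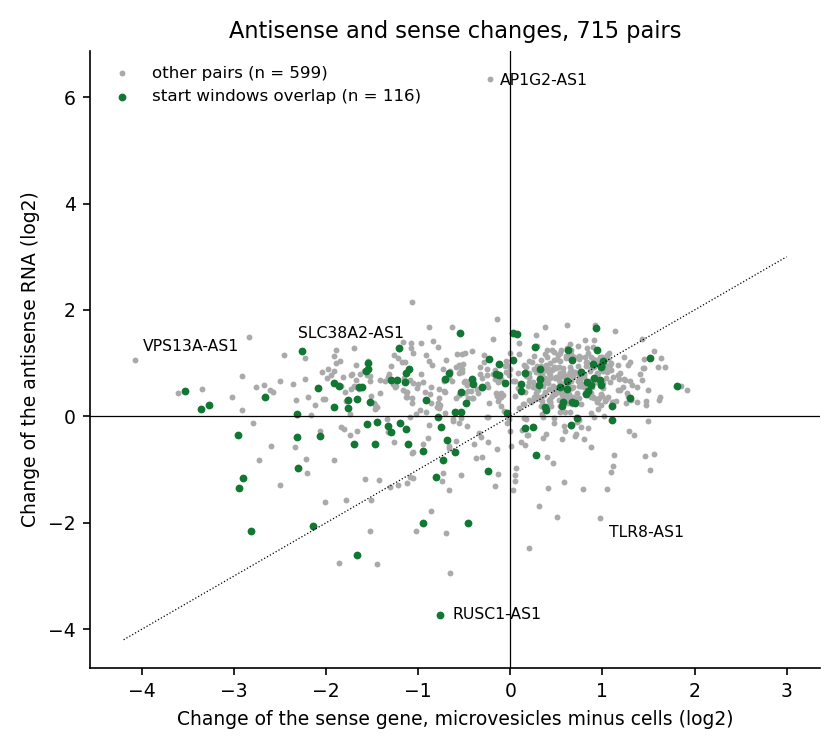
Change of each antisense RNA against that of its sense gene, microvesicles minus cells (log2), over 715 pairs. Green points are the 116 pairs whose RefSeq start windows overlap and grey points the others. The points scatter widely (Pearson r of 0.21), with 97 pairs called up for the antisense RNA and down for the sense gene.

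The 8 opposite pairs with the largest difference all had a rising antisense RNA and a falling sense gene, and were taken for that difference. VPS13A-AS1 stood at 4.37, 4.36, 4.50, 4.48 and 4.48 in cells and at 5.15, 5.71, 5.26, 5.01 and 6.39 in microvesicles. VPS13A, a lipid transfer gene, stood at 7.25, 8.05, 7.96, 7.06 and 7.68 in cells and at 2.52, 4.41, 3.23, 4.03 and 3.41 in microvesicles. Neither overlapped between the groups. The antisense RNA rose by 1.07 ± 0.23 and VPS13A fell by 4.08 ± 0.32, with 0.81 and -3.94 after loess. VPS13A-AS1 has 1 probe set, whose name carries the suffix x, and whether it reads this RNA alone was not tested.

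OSTM1-AS1 stood at 2.06, 2.35, 2.13, 2.34 and 2.15 in cells and at 4.28, 3.25, 3.93, 3.50 and 3.54 in microvesicles. OSTM1, a gene of recessive osteopetrosis, stood at 7.32, 7.70, 7.67, 7.75 and 7.54 and at 4.19, 4.34, 5.92, 5.21 and 4.12. Both were without overlap, with changes of 1.49 ± 0.20 and -2.84 ± 0.31 (limma adjusted p = 3.49e-05 and 7.22e-06). All values of OSTM1-AS1 were below the array medians, and its rise was 0.88 after loess (limma adjusted p = 0.00391). SLC38A2-AS1, whose start region is printed above, stood at 4.50, 4.75, 4.57, 4.86 and 4.64 in cells and at 6.77, 6.04, 5.58, 5.97 and 5.14 in microvesicles. SLC38A2, an amino acid transporter gene, stood at 11.69, 11.60, 11.50, 11.21 and 11.23 in cells and at 9.88, 8.74, 8.78, 9.43 and 9.07 in microvesicles. Again neither overlapped, and the changes were 1.24 ± 0.25 and -2.27 ± 0.22, with 1.17 and -1.79 after loess. The second probe set of SLC38A2-AS1 rose too, by 0.73.

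LIMD1-AS1 (1.15 ± 0.22) rose against LIMD1 (-2.46 ± 0.21), a LIM domain scaffold gene, with 0.75 and -1.92 after loess. UBXN7-AS1 (1.10 ± 0.22) rose against UBXN7 (-2.23 ± 0.34), a cofactor gene of the p97 ATPase, and missed the threshold after loess (0.54, limma adjusted p = 0.0529). RIPOR3-AS1 (0.77 ± 0.32), EIF2AK3-AS1 (0.51 ± 0.17) and DSG2-AS1 (0.44 ± 0.18) had overlapping groups and did not pass after loess. Their sense genes fell by 2.92, 3.34 and 3.61, EIF2AK3 being the stress kinase PERK and DSG2 a desmosomal cadherin. DSG2-AS1 and RIPOR3-AS1 passed narrowly (limma adjusted p = 0.0392 and 0.0453), and these calls were lost without single arrays. With median centring neither passed (0.35 and 0.67, limma adjusted p = 0.105 and 0.0807), and DSG2-AS1 did not pass with the replicate block (0.0622) or a variance trend (0.0559). Without cells replicate 2 the change of DSG2-AS1 was 0.37, and without microvesicles replicate 5 that of RIPOR3-AS1 was 0.46.

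The reverse pattern, a falling antisense RNA and a rising sense gene, is shown by TLR8-AS1, chosen after its values were seen. It stood at 6.57, 6.86, 6.44, 6.09 and 6.03 in cells and at 4.40, 5.26, 4.59, 4.12 and 4.05 in microvesicles, without overlap. TLR8, the gene of an endosomal RNA receptor, stood at 2.75, 2.60, 2.41, 2.64 and 2.79 and at 2.84, 3.57, 3.36, 4.24 and 4.07. The changes were -1.91 ± 0.24 and 0.98 ± 0.24 (limma adjusted p = 2.58e-05 and 0.00312). After loess they were -1.86 and 0.37.

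Pairs whose genes start close together were described by the RefSeq positions. Both genes had a place in the RefSeq gene table in 711 pairs, and the gene bodies overlapped in 628 of these. Start windows were given for both genes in 470 pairs, 469 of them on opposite strands, and in 116 pairs the windows shared bases, from 14 to 294 of 300. In these 116, 52 antisense RNAs rose and 15 fell (median change 0.44, and -0.021 after loess), and 28 sense genes rose and 59 fell (median -0.54, and -0.13 after loess). The rises are 44.8% of these antisense RNAs, against 50.8% of all members. The sense genes, at a median level of 6.40, rose in 24.1% and fell in 50.9%, beside 15.2% and 55.1% of all genes with a mean of at least 5. These sense genes were not themselves filtered by level, so the sets are unlike. Both rose in 17 pairs, both fell in 12, the antisense RNA rose against a falling sense gene in 16, and the reverse was seen in 0. Their Pearson r was 0.36, and 0.18 after loess.

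Within the 116 the difference passed in 55 pairs, 49 with the antisense change above and 6 below, and after loess in 43, with 28 above and 15 below. ZBED5-AS1, which shares 263 bases with ZBED5, stood at 6.79, 6.77, 6.73, 6.81 and 6.49 in cells and at 5.61, 3.81, 5.28, 3.89 and 4.72 in microvesicles. All microvesicle arrays lay below all cell arrays. The change was -2.06 ± 0.31, that of ZBED5 was -2.15 ± 0.31, and the difference of 0.090 did not pass (exact permutation adjusted p = 0.914). A TATA box, searched as TATAAA or TTTATA so that both strands count, is present in 3.27% of the 153 antisense windows that share bases with the sense gene, in 8.96% of all windows of antisense RNAs and in 11.5% of all RefSeq windows. The median GC content of these 3 sets was 67.7%, 59.7% and 58.7%.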

How the data were processed

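Total RNA of 5 numbered samples of K562 cells and 5 of their microvesicles was labelled and hybridised to Affymetrix HG-U133 Plus 2.0 arrays. The authors deposited 1 log2 value for each probe set and array, and the submitters' processing notes name RMA as the method. RMA subtracts background, equalises the intensity distributions of arrays and summarises probes, so a difference in total RNA between the groups is not visible. The deposited distributions still differed between the groups. The array medians over all probe sets were 4.08 to 4.12 in cells and 4.22 to 4.28 in microvesicles. The version of RMA is not given in the sources used here.

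The table holds 54630 probe sets, of which 41091 have 1 gene, 1801 several, 11721 none listed, and 17 are controls. Gene symbols came from the platform annotation. Probe sets with several genes were left out, 22 of them with an antisense symbol. The 781 members, among 19775 genes, came from 1083 probe sets, and 566 had 1 probe set. The sense gene was taken by removing the ending of the symbol.

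Groups were compared with limma 3.58.1 (lmFit and eBayes, R 4.3.3), 2-sided, with Benjamini-Hochberg adjustment over all genes and a threshold of 0.05. Changes are microvesicles minus cells ± SE. Per pair, the antisense minus sense difference on each array was compared by a 2-sided exact permutation test over 252 assignments, adjusted over 715 pairs. Of these, 356 had an unadjusted p under 0.05. The scripts were tested on simulated data.

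Alternatives were median centring, quantile normalization again, loess by level (span 0.3, each array against the mean array), a mean of at least 5, the mean of probe sets, a replicate block, a variance trend with robust fitting, limma on pair differences, and leaving out each array. Named genes were the 10 largest rises and 10 largest falls past the threshold with a higher group mean of at least 5 (142 members qualified), the 8 opposite pairs with the largest difference, and members with a studied function whatever their values. The members, lists and tests were chosen with earlier results of these data known. Sequences are from RefSeq tables.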

Additional observations from a re-analysis of the deposited data

Results flagged for a closer look

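In each named antisense RNA the highest and the lowest of the 5 arrays of a group were compared with the other arrays of that group. Of 72 groups examined, 2 held an array far from the others by Dixon's criterion, where chance gives about 1 in 20. TNS2-AS1 was at 6.04 in microvesicles replicate 4, and the other microvesicle arrays lay between 5.07 and 5.33. OIP5-AS1 was at 9.18 in cells replicate 5, and the other cell arrays lay between 9.31 and 9.36.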

How the results depend on the processing

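After a second quantile normalization 7701 genes passed, 211 of them antisense RNAs with 113 higher, the median change was 0.14, and 192 pairs passed the test of the difference. After loess by level 8158 genes, 216 antisense RNAs and 98 higher ones passed, with a median of 0.027. Median centring gave a median of 0.45. With genes of a mean of at least 5 alone, a setting that tests fewer and brighter genes, 7203 genes and 90 antisense RNAs passed, 36 higher and 54 lower, with a median of -0.25 and 44 pairs. Leaving out single arrays gave 11664 to 13411 genes, 418 to 494 antisense RNAs, 343 to 409 higher, 75 to 87 lower, medians of 0.52 to 0.56 and 240 to 317 pairs. GATA3-AS1 turned to -0.36 after quantile normalization and -0.42 after loess, and MAPKAPK5-AS1 to 0.18, 0.15 and, with the mean of probe sets, 0.0085, a setting in which GATA3-AS1 passed at 0.48. The cause was not tested. With the replicate number as a block 474 antisense RNAs passed, 391 higher and 83 lower, and 328 pairs by limma, against 323 by limma without the block. Of the named antisense RNAs the block ended the call of DSG2-AS1 alone, and median centring those of DSG2-AS1 and RIPOR3-AS1. Deviations of same-numbered arrays correlated at -0.028 to 0.12, over 0.1 in 2 of 5, and those of differently numbered arrays at -0.11 to 0.12. Though 4 of 5 cell arrays correlated best with their own number, these ranges overlap. Neither the values nor the labels settle whether same-numbered samples share a culture. Over the named members 347 of 360 values without 1 array kept their direction and call and 13 lost the call, all in DSG2-AS1 and RIPOR3-AS1. The signal of dim probe sets over background is unknown, which limits the size of their changes.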
